A study of Homo sapiens with 12 samples.

Results

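Expression of 8 genes at the core of phosphoinositide 3-kinase (PI3K), AKT and mTOR signalling was followed across an RNA-seq series of 769-P cells, an established line of human clear cell renal carcinoma. The genes were picked by name as the pathway's central kinases, scaffolds and effector: PIK3CA, PIK3R1, AKT1, AKT2, MTOR, RPTOR, RICTOR and FOXO3. All 8 were found among the 60617 gene IDs of both deposited count tables, and all 8 passed the filter on low counts in every comparison. The 12 libraries form 4 groups of 3, each named for what the cells received: siDRAIC, a small interfering RNA (siRNA) named for the long noncoding RNA DRAIC; siDRAIC-NC, its control; sihnRNPA2B1, an siRNA named for the RNA-binding protein hnRNPA2B1; and sihnRNPA2B1-NC, its control. All groups were the same line in the same serum-containing medium, with no other agent named. The meaning of NC, the siRNA sequences and the time between transfection and harvest were not found in the labels. No label says that the 3 libraries of a group came from separate cultures, so p-values measure the spread between these libraries, which may be technical. In such bulk RNA, fewer cells with an mRNA and less of it per cell cannot be told apart.

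PI3K is a lipid kinase made of a catalytic subunit, such as the p110-alpha protein of PIK3CA, and a regulatory subunit, such as the p85-alpha protein of PIK3R1. It makes the membrane lipid that recruits the AKT kinases, which phosphorylate FOXO transcription factors and keep them out of the nucleus. The kinase mTOR works in a pair of complexes: mTORC1, built on RAPTOR (RPTOR), drives translation and restrains autophagy, and mTORC2, built on RICTOR, phosphorylates AKT. The pathway is a drug target in clear cell renal carcinoma, where mTOR inhibitors have been used. Its activity is set mostly by phosphorylation, which mRNA counts do not measure.

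The labels were checked first against the targeted genes. DRAIC had 2, 1 and 2 counts in the siDRAIC-NC libraries and 3, 6 and 0 in the libraries labelled siDRAIC, or 1.76 times the control level once scaled for depth (exact 95% interval 0.531 to 6.70, counting error only). So few counts could not show a lower DRAIC level, and these are called the libraries labelled siDRAIC throughout. HNRNPA2B1 stood at 428, 396 and 435 CPM (counts scaled to the library total) in the sihnRNPA2B1-NC libraries and at 291, 307 and 274 CPM in the sihnRNPA2B1 libraries, and it fell (log2 fold change -0.56, SE 0.05, adjusted p = 2.16e-09, edgeR quasi-likelihood test). In the DRAIC experiment HNRNPA2B1 stood at 704 to 913 CPM in the controls and 531 to 734 CPM in the libraries labelled siDRAIC. Library totals ran from 30798303 to 42760528 counts. Of 9 kidney and carcinoma markers, 8 were at 1 CPM or more in each group, and CA9, a hypoxia marker of clear cell carcinoma, had at most 3 counts in any library. The 9 markers of other cell types summed to 0.428 to 1.84 CPM per library. The 13 mitochondrial mRNAs took 7.07% ± 0.314 of counts in siDRAIC-NC, 8.48% ± 0.796 in siDRAIC, 5.17% ± 0.0615 in the hnRNPA2B1 controls and 6.36% ± 0.124 after that siRNA (SD, n = 3 each), and the part of this share in the results was not tested.

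After hnRNPA2B1 siRNA the mTORC1 scaffold RPTOR and the transcription factor FOXO3 fell slightly, by 0.19 and 0.18 on the log2 scale, and the other 6 genes did not pass the test, where 30.4% of all genes passed. In the libraries labelled siDRAIC none of the 8 genes passed it, where 0.713% of all genes did. The largest differences lay between the control groups of the experiments, where AKT1 and AKT2 were higher and RICTOR and FOXO3 lower in siDRAIC-NC, where 50.1% of all genes passed. Here a gene is called changed when its Benjamini-Hochberg adjusted p in edgeR is below 0.05.

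Short stretches at the start sites are shown for the 3 members whose RefSeq promoter window (300 bases, 250 of them before the start site; GRCh38.p14) held a motif that few windows hold. The capitals mark the match, and the motifs were chosen after the sequences were read.

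PIK3CA: agttcgttgttTGTTTACacgatgtgagcg
RPTOR: gggtcctggcAATATGGCGtcctccttgat
RICTOR: gaaacccgtcAATATGGCGgcgatcggccg

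The PIK3CA stretch (chr3:179148197-179148226, plus strand) holds the forkhead core GTAAACA, read here on the opposite strand, 149 bases before the RefSeq start site. That site lies 243 bases inside the gene as GENCODE 29 places it, so the stretch lies after the GENCODE start at 179148114. The core is bound by FOX factors, the family of FOXO3, and 3.423% of 35116 windows hold it on either strand. The stretches of both scaffold genes, RPTOR (chr17:80544836-80544865, plus strand) and RICTOR (chr5:39074361-39074390, minus strand), hold the YY1 motif AANATGGCG, 8 and 19 bases after the start site, which 3.192% of windows hold. The GC box GGGCGG was found in 7 copies for AKT1 and none for RPTOR, and 44.954% of windows hold it; CCAAT, held by 34.614%, was found for PIK3CA, MTOR and RICTOR. A match describes these letters, not a bound site.

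**Figure D1:**
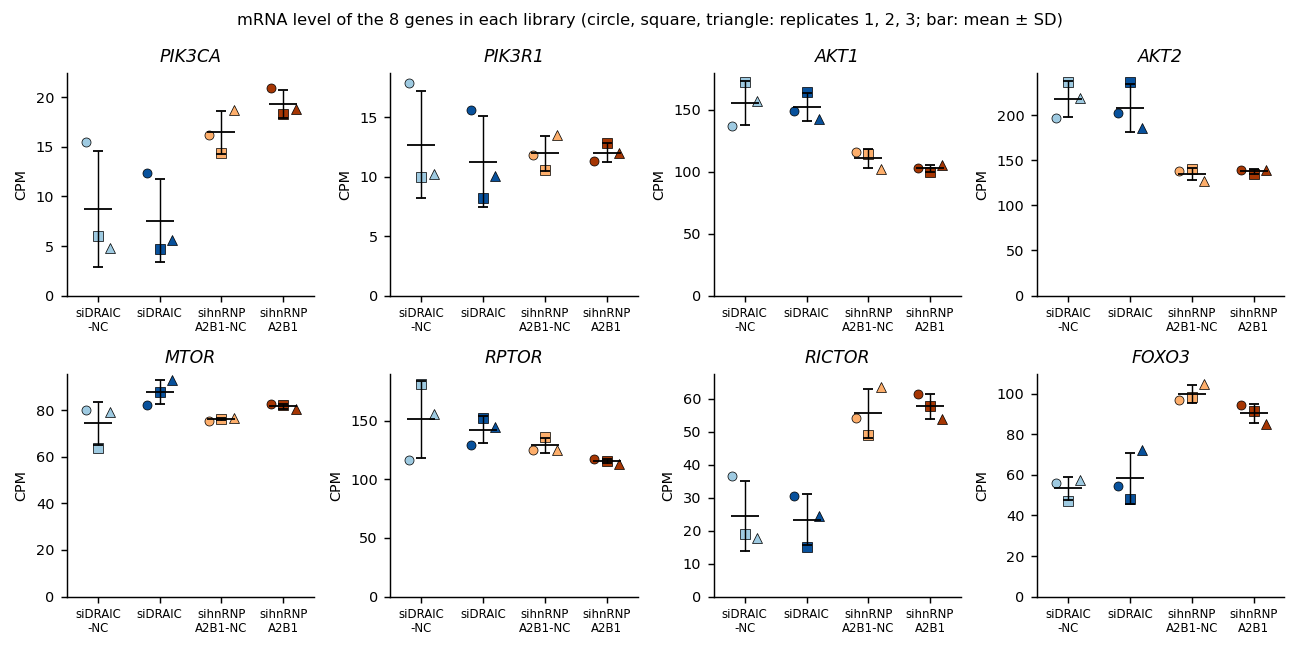
Each panel plots the CPM of one gene on a linear axis from 0, with 1 symbol per library, shaped by replicate number, and a bar for the mean ± SD of the 3 libraries of each group. Replicate 1 of both DRAIC groups stands above replicates 2 and 3 for PIK3CA, PIK3R1 and RICTOR, while the hnRNPA2B1 libraries lie close together.

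PIK3CA, the catalytic subunit, was among the lowest of the 8 and the most uneven between libraries. It stood at 15.5, 6.04 and 4.79 CPM in the siDRAIC-NC libraries and at 12.4, 4.72 and 5.59 CPM in the libraries labelled siDRAIC. In the hnRNPA2B1 experiment it stood at 16.2, 14.4 and 18.7 CPM in the controls and 21.0, 18.3 and 18.8 CPM after the siRNA. Replicate 1 of each DRAIC group was high and the other 2 low, so the DRAIC groups overlapped, and the hnRNPA2B1 groups overlapped through the third control. The log2 fold change was -0.22 (95% interval -1.29 to 0.85, adjusted p = 0.918) in the libraries labelled siDRAIC and 0.20 (0.01 to 0.40, adjusted p = 0.112) after hnRNPA2B1 siRNA. Without sihnRNPA2B1-NC replicate 3 the second value was 0.29 and passed, at an adjusted p of 0.0181. PIK3CA lies on chromosome 3 at 179148114-179240093 (GRCh38, plus strand) and shares exon sequence with KCNMB3 on the opposite strand, and without strand the reads of the 2 genes cannot be told apart there.

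PIK3R1, the regulatory subunit that stabilises and restrains the catalytic one (chromosome 5, 68215720-68301821, plus strand), stood at 17.9, 9.94 and 10.3 CPM in siDRAIC-NC and 15.6, 8.19 and 10.0 CPM in siDRAIC. It stood at 11.9, 10.6 and 13.5 CPM in sihnRNPA2B1-NC and 11.3, 12.9 and 11.95 CPM in sihnRNPA2B1. Again replicate 1 was the highest in both DRAIC groups, and the groups of each experiment overlapped. Between DRAIC libraries of the same number the log2 change was -0.16, -0.40 and -0.12, lower in 3 of 3 pairs, and the fit blocked on that number gave -0.19 (adjusted p = 0.648). Neither change passed the test, at -0.19 (-0.78 to 0.41, adjusted p = 0.867) and -0.02 (-0.24 to 0.20, adjusted p = 0.896).

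With the median transcript length of each gene, the PIK3R1 level per kilobase was above that of PIK3CA in all 12 libraries. The ratio was 2.90, 4.15 and 5.39 in siDRAIC-NC, 3.17, 4.36 and 4.52 in siDRAIC, 1.84, 1.84 and 1.82 in sihnRNPA2B1-NC and 1.35, 1.77 and 1.60 in sihnRNPA2B1. The sihnRNPA2B1 ratios all lay below their controls, with a log2 difference of -0.23. An exact two-sided permutation test gave p = 0.1, the smallest that 3 against 3 allows, and 0.3 after adjustment over the 6 ratio tests made. Lengths are medians over protein-coding transcripts. Whether PIK3R1 lies above PIK3CA depends on them, and the log2 difference between groups does not. With the union of all exons PIK3R1 stayed above PIK3CA in siDRAIC-NC (means of 1.18 and 0.925 CPM per kilobase) but lay below it in sihnRNPA2B1-NC (1.11 and 1.73) and in sihnRNPA2B1 (1.12 and 2.04).

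AKT1 and AKT2, the serine-threonine kinases that carry the PI3K signal, were the most abundant of the 8 with RPTOR. AKT1 (chromosome 14, 104769349-104795751, minus strand) stood at 137, 173 and 157 CPM in siDRAIC-NC and 149, 164 and 142 CPM in siDRAIC. In the other experiment AKT1 stood at 116, 114 and 102 CPM in the controls and 103, 99.98 and 105 CPM after hnRNPA2B1 siRNA. The siRNA groups overlapped with their controls in both experiments. The AKT1 log2 fold changes were -0.06 (-0.43 to 0.31, adjusted p = 0.941) and -0.14 (-0.27 to -0.02, adjusted p = 0.0733). Without sihnRNPA2B1-NC replicate 3, the lowest control, the second was -0.21 and passed (adjusted p = 0.00184).

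AKT2 (chromosome 19, 40230317-40285536, minus strand), the isoform most linked to insulin-driven glucose uptake, stood at 197, 237 and 219 CPM in siDRAIC-NC and 202, 237 and 185 CPM in siDRAIC. It stood at 138, 139.9 and 127 CPM in sihnRNPA2B1-NC and 139, 135 and 139 CPM in sihnRNPA2B1. The hnRNPA2B1 groups were nearly level, with a log2 fold change of -0.0029 (95% interval -0.12 to 0.11, adjusted p = 0.978), and in the libraries labelled siDRAIC it was -0.09 (-0.46 to 0.29, adjusted p = 0.908). The ratio of AKT2 to AKT1 per kilobase was nonetheless higher in each sihnRNPA2B1 library, at 1.08, 1.07 and 1.05, than in its controls, at 0.948, 0.973 and 0.992 (log2 difference 0.14, exact permutation p = 0.1, adjusted p = 0.3). In the DRAIC experiment that ratio overlapped between the groups, at 1.09 to 1.15 in the controls and 1.04 to 1.15 in the libraries labelled siDRAIC.

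MTOR, the kinase of both complexes (chromosome 1, 11106535-11262507, minus strand), was the steadiest of the 8. It stood at 80.2, 63.65 and 79.3 CPM in siDRAIC-NC and 82.5, 88.0 and 93.1 CPM in siDRAIC. In the hnRNPA2B1 experiment it stood at 75.6, 76.3 and 76.5 CPM in the controls and 82.6, 82.1 and 80.4 CPM after the siRNA. In both experiments every siRNA library lay above every control. The log2 fold changes were 0.22 (-0.13 to 0.57, adjusted p = 0.682) in the libraries labelled siDRAIC and 0.07 (-0.05 to 0.19, adjusted p = 0.397) after hnRNPA2B1 siRNA, and neither passed. Groups that do not overlap were found for 15.6% and 42.0% of all genes tested in these experiments. The SD of MTOR over the 12 libraries, 0.10 on the log2 CPM scale, was at percentile 0.6 of all genes.

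RPTOR, the mTORC1 scaffold that presents substrates to the kinase (chromosome 17, 80544819-80966371, plus strand), stood at 125, 136 and 125 CPM in sihnRNPA2B1-NC and 117, 116 and 113 CPM in sihnRNPA2B1. The siRNA libraries all lay below the controls, and RPTOR fell by 0.19 on the log2 scale (SE 0.06, 95% interval -0.31 to -0.08, adjusted p = 0.00999). The adjusted p ran from 0.000997 to 0.0497 when single libraries were left out, and was 0.598 when all 12 libraries shared 1 estimate of the spread. In the DRAIC experiment RPTOR stood at 116, 181 and 156 CPM in the controls and 129.6, 152 and 145 CPM in the libraries labelled siDRAIC. There replicate 1 was the lowest of each group and the groups overlapped, with a log2 fold change of -0.12 (-0.55 to 0.31, adjusted p = 0.883). RPTOR shares short exon stretches with antisense genes.

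RICTOR, the mTORC2 scaffold (chromosome 5, 38937919-39074408, minus strand), stood at 36.5, 19.0 and 17.8 CPM in siDRAIC-NC and 30.5, 15.1 and 24.3 CPM in siDRAIC. It stood at 54.3, 48.9 and 63.5 CPM in sihnRNPA2B1-NC and 61.3, 57.9 and 53.8 CPM in sihnRNPA2B1. Replicate 1 was again the highest of each DRAIC group, the groups of each experiment overlapped, and every hnRNPA2B1 library lay above every DRAIC library. The log2 fold changes were -0.08 (-0.71 to 0.54, adjusted p = 0.955) and 0.02 (-0.13 to 0.17, adjusted p = 0.861). The first turned to 0.27 without siDRAIC-NC replicate 1. RICTOR shares a short exon stretch with OSMR on the opposite strand.

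The ratio of RICTOR to RPTOR per kilobase was 0.211, 0.0705 and 0.0767 in siDRAIC-NC and 0.158, 0.0668 and 0.113 in siDRAIC. It was 0.291, 0.241 and 0.341 in sihnRNPA2B1-NC and 0.352, 0.336 and 0.319 in sihnRNPA2B1. Replicate 1 was the highest in each DRAIC group, and no DRAIC library reached the lowest hnRNPA2B1 library. RICTOR and RPTOR differ in GC content, at 36.5% and 59.8%, and a ratio within a library does not remove the GC trend given below. The part of that trend in this gap was not tested. Neither experiment separated siRNA from control, with log2 differences of 0.02 (exact permutation p = 1.0) and 0.22 (exact permutation p = 0.3).

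**Figure D2:**
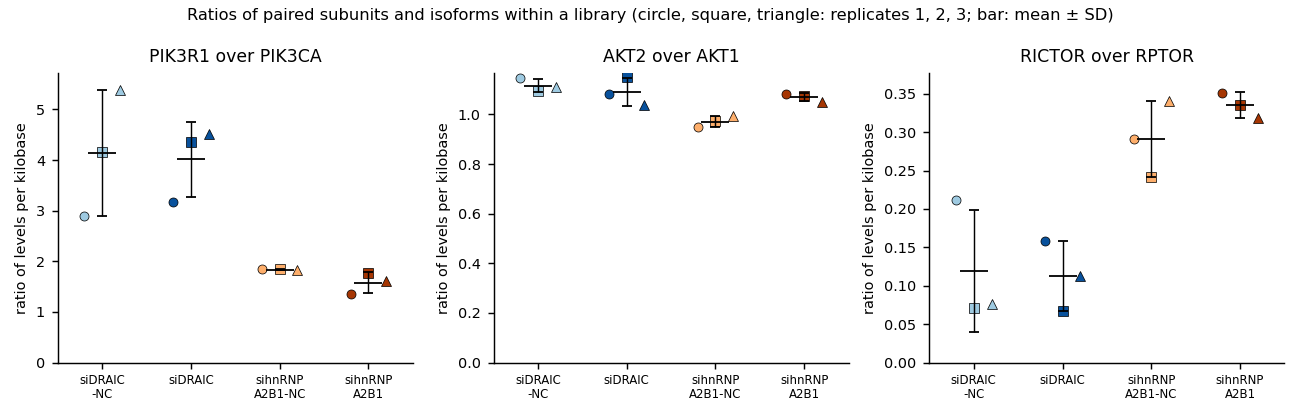
Each panel plots a ratio of levels per kilobase within a library, on a linear axis from 0, with 1 symbol per library shaped by replicate number and a bar for the mean ± SD of 3 libraries. The AKT2 to AKT1 ratio lies between 0.948 and 0.992 in the hnRNPA2B1 controls and between 1.05 and 1.08 after that siRNA. The RICTOR to RPTOR ratio is lower in all 6 DRAIC libraries than in the 6 hnRNPA2B1 libraries. The ratios are not corrected for GC content.

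FOXO3, the transcription factor that AKT holds in check (chromosome 6, 108559835-108684774, plus strand), stood at 96.9, 98.3 and 105 CPM in sihnRNPA2B1-NC and 94.5, 91.3 and 85.4 CPM in sihnRNPA2B1. All siRNA libraries lay below all controls, by a narrow margin, and FOXO3 fell by 0.18 on the log2 scale (SE 0.06, 95% interval -0.30 to -0.06, adjusted p = 0.0185). The call was lost without sihnRNPA2B1 replicate 2 (adjusted p = 0.063), without replicate 3 (0.113) and with 1 spread for all 12 libraries (0.569). In the DRAIC experiment FOXO3 stood at 56.0, 47.0 and 57.4 CPM in the controls and 54.3, 48.1 and 72.5 CPM in the libraries labelled siDRAIC. These overlapped, and the change was 0.10 (-0.31 to 0.51, adjusted p = 0.903). The processed pseudogene FOXO3B had at most 47 counts in a library, against at least 1876 for FOXO3.

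The members' counts were read against those of all genes. In the libraries labelled siDRAIC 0 of 8 were called, by edgeR and by DESeq2, and 0 of 8 reached an unadjusted p under 0.05, where 0.713% of 15986 genes were called (0.582% were called higher) and 10.7% had an unadjusted p under 0.05. After hnRNPA2B1 siRNA 2 of 8 were called, both lower, where 30.4% of 15710 genes were called and 15.4% were called lower. An unadjusted p under 0.05 was reached by 4 of 8, beside 40.1% of all genes, and the groups did not overlap for 3 of 8, beside 42.0%. The members' median log2 fold change was -0.09 in the libraries labelled siDRAIC and -0.01 after hnRNPA2B1 siRNA, beside 0.00 and 0.01 over all genes tested. When the 2 changes were compared with each other, 0 of 8 members were called by edgeR or by DESeq2 and 0 of 8 had an unadjusted p under 0.05, where 0.211% of 17091 genes were called and 9.13% had an unadjusted p under 0.05. The difference ran from -0.44 for PIK3CA (95% interval -1.64 to 0.76, adjusted p = 0.874) to 0.25 for FOXO3 (-0.17 to 0.66, adjusted p = 0.769). With intervals this wide, and -0.84 to 0.59 for RICTOR, the lack of a call does not show that the changes were alike.

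**Figure D3:**
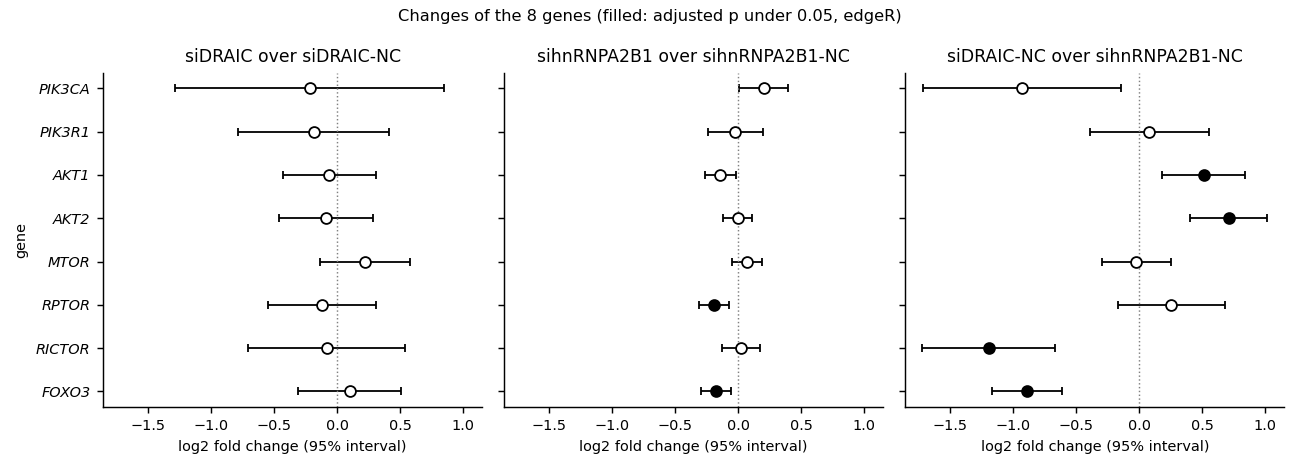
Log2 fold changes of the 8 genes in 3 comparisons are plotted as points with 95% intervals, filled where the adjusted p is below 0.05. Only RPTOR and FOXO3 are filled for hnRNPA2B1 siRNA, none for siDRAIC, and AKT1, AKT2, RICTOR and FOXO3 for the control groups, where the values run from -1.19 to 0.71.

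For PIK3CA, AKT1, AKT2, RPTOR, RICTOR and FOXO3 the value between the control groups was larger in size than for either siRNA; for MTOR and PIK3R1 it was not. AKT2 was 1.63-fold higher in siDRAIC-NC than in sihnRNPA2B1-NC (log2 fold change 0.71, SE 0.14, adjusted p = 0.00234) and AKT1 1.43-fold higher (0.51, SE 0.15, adjusted p = 0.0174). RICTOR was 2.29-fold lower (-1.19, SE 0.23, adjusted p = 0.00262) and FOXO3 1.86-fold lower (-0.89, SE 0.12, adjusted p = 0.000375). The groups did not overlap for 4 of 8 members, beside 59.9% of all genes, and 4 of 8 members were called, beside 50.1% of 15868 genes (25.3% higher and 24.8% lower). An unadjusted p under 0.05 was reached by 5 of 8, beside 56.7% of all genes. PIK3CA was at -0.93 (SE 0.35, adjusted p = 0.0503) with overlapping libraries, and at -1.54 (adjusted p = 1.34e-07) without siDRAIC-NC replicate 1. MTOR, PIK3R1 and RPTOR were at -0.02, 0.08 and 0.25 and did not pass. The AKT1 call was lost without siDRAIC-NC replicate 2 or 3 or sihnRNPA2B1-NC replicate 1 or 3, at an adjusted p of 0.0556 to 0.091, and RPTOR passed without siDRAIC-NC replicate 1 (0.45, adjusted p = 0.000229). The experiment and the kind of control cannot be told apart in this design.

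Differences between the control groups, and between replicates of the DRAIC experiment, ran with the base composition of transcripts. The GC content of the longest coding transcript was 34.8% for PIK3CA, 36.5% for RICTOR, 40.3% for PIK3R1, 49.1% for FOXO3, 52.2% for MTOR, 58.3% for AKT2, 58.7% for AKT1 and 59.8% for RPTOR. Over all genes, the median log2 difference between the control groups ran from -0.41 under 40% GC to 0.36 at 60% or more. In siDRAIC-NC, replicate 1 minus the mean of replicates 2 and 3 ran over the same bins from 0.57 to -0.41, and the members gave 1.36 for PIK3CA, 0.83 for RICTOR, 0.66 for PIK3R1, -0.42 for AKT1 and -0.69 for RPTOR. In the libraries labelled siDRAIC the bins ran from 0.27 to -0.07, with PIK3CA at 1.25 and RPTOR at -0.21. In the hnRNPA2B1 groups replicate 1 showed little of this, with bin medians of -0.027 to 0.0062 in the controls and -0.026 to 0.043 after the siRNA. Between the control groups FOXO3, at 49.1% GC, was at -0.89 where the bin of 45 to 50% had a median of -0.02, and PIK3R1, at 40.3% GC, was at 0.08 where the bin of 40 to 45% had -0.21. The change after hnRNPA2B1 siRNA also ran with GC content, from 0.13 under 40% to -0.09 at 55 to 60% and -0.07 at 60% or more. RPTOR, at 59.8% GC, was at -0.19 there.

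**Figure D4:**
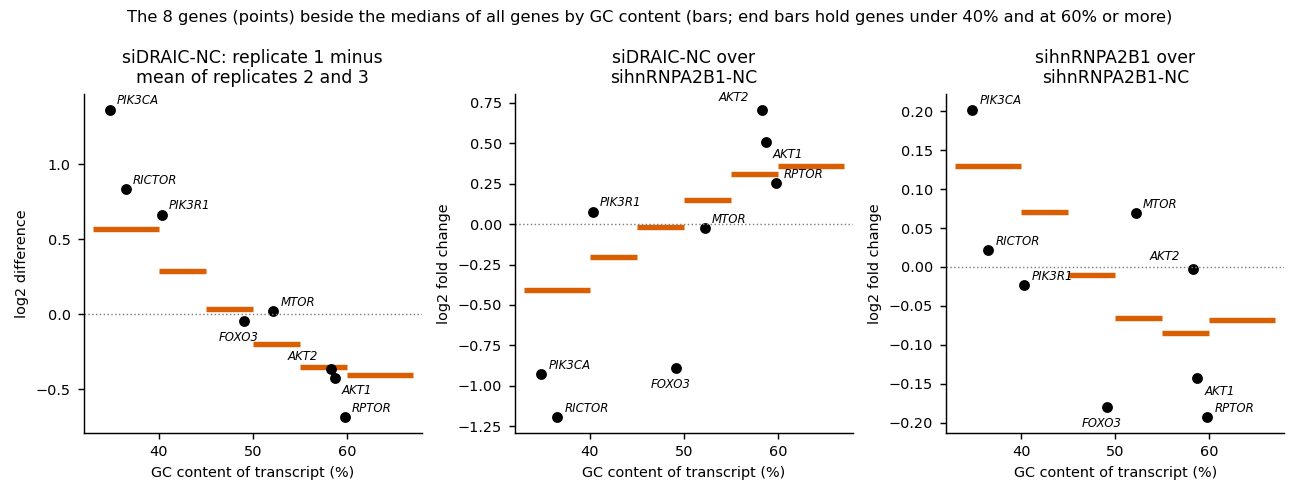
Points show the 8 genes and bars the medians of all genes in 6 bins of transcript GC content (x axis, percent); the y axes are log2 differences and differ in range between panels. The bars fall with GC content for siDRAIC-NC replicate 1 and rise between the control groups. For hnRNPA2B1 siRNA they fall to the bin of 55 to 60% and lie slightly higher at 60% or more. FOXO3 lies at -0.89 in the middle panel, far below the bars beside it.

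A fit with each library's trend on GC content removed (the GC offset), chosen after seeing the data, was run beside the one reported. After hnRNPA2B1 siRNA it gave RPTOR at -0.12 (adjusted p = 0.0232) and FOXO3 at -0.14 (adjusted p = 0.0155), both still called, and it called MTOR higher, at 0.13 (adjusted p = 0.0248). AKT2 and RICTOR, not called, changed sign to 0.08 and -0.10. Between the control groups it left FOXO3 at -0.91 and called, and it left RICTOR (-0.79 in place of -1.19), AKT2 (0.42 in place of 0.71) and AKT1 (0.22 in place of 0.51, adjusted p = 0.04) called at smaller values; with the replicate number as a block too, AKT1 was not called (adjusted p = 0.0706). It moved PIK3CA to -0.54 (adjusted p = 0.034) and PIK3R1 to 0.38 (adjusted p = 0.0275), both then called, and turned RPTOR to -0.06. In the libraries labelled siDRAIC it called 0 of 8 members. What the base composition has to do with the library preparation or with the cells was not tested.

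Levels were compared between members as CPM per kilobase of median transcript length. In siDRAIC-NC the means ran in the order AKT2 (60.5), AKT1 (54.3), RPTOR (26.4), MTOR (11.7), FOXO3 (7.32), PIK3R1 (4.83), RICTOR (2.87) and PIK3CA (1.33). In sihnRNPA2B1-NC they ran AKT1 (38.6), AKT2 (37.5), RPTOR (22.5), FOXO3 (13.7), MTOR (11.997), RICTOR (6.52), PIK3R1 (4.56) and PIK3CA (2.49). AKT1 and AKT2 overlapped in both control groups, as did all neighbours from FOXO3 down in siDRAIC-NC, while in sihnRNPA2B1-NC every other pair of neighbours was apart. With this length FOXO3 lay below MTOR in siDRAIC-NC and above it in sihnRNPA2B1-NC. With the union of exons as the length FOXO3 lay above MTOR in both and led both hnRNPA2B1 groups, at 13.0 and 11.7 CPM per kilobase.

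The genes whose profile over the 12 libraries was nearest to each member's were found as the smallest root mean square difference of centred log2 CPM among 17090 genes. For PIK3CA these were ATM (0.09) and CUL5 (0.09), and for RICTOR they were RAB3GAP2 (0.08) and RALGAPA1 (0.08). For AKT1 they were NDUFV1 (0.04) and SURF4 (0.04), for AKT2 MLF2 (0.03) and ANXA11 (0.05), for RPTOR RALY (0.05) and ERAL1 (0.07), and for PIK3R1 RECQL (0.09) and CEP97 (0.11). MTOR was nearest to HDLBP and UBQLN2 (0.06 each) and FOXO3 to MSANTD7 (0.08) and AFF3 (0.09). These 12 libraries share experiment, replicate number and base composition trends, so likeness describes the libraries and is given with no test.

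Around the members, 10 lists of 99 further pathway genes were counted, chosen with earlier results of these data known. After hnRNPA2B1 siRNA, 40 of 93 tested list genes were called, 17 higher and 23 lower, beside 30.4% of all genes (15.1% higher, 15.4% lower), and when all 12 libraries shared 1 estimate of the spread 5 were. Of 7 tested PI3K subunits, PIK3CD, the delta catalytic subunit, fell from 52.0 to 58.4 CPM in the controls to 42.3 to 48.2 CPM (-0.35, adjusted p = 0.000347), and PIK3C2A, a class II enzyme, passed narrowly (0.19, adjusted p = 0.0497) with overlapping libraries. None of the 5 adaptors was called. IRS1 and IRS2, which link the insulin receptor to PI3K, were at 0.13 and -0.02, and with the GC offset IRS1 (0.18, adjusted p = 0.00596) and GRB10 (0.10, adjusted p = 0.0375) were called. IGF1R, a receptor upstream of PI3K, rose from 21.0 to 23.7 CPM in the controls to 25.0 to 29.4 CPM (0.26, SE 0.08, adjusted p = 0.0188). Among 9 phosphatases, PHLPP1, which acts on AKT, fell (-0.36, adjusted p = 0.0355), and INPP4A, a lipid phosphatase, rose (0.27, adjusted p = 0.0126).

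Of the 8 listed AGC kinases 7 were called, 4 higher and 3 lower, beside 30.4% of all genes (15.1% higher, 15.4% lower). SGK1, a kinase that shares substrates with AKT, stood at 88.9, 86.4 and 91.4 CPM in the controls and 54.4, 56.8 and 64.9 CPM after hnRNPA2B1 siRNA, and fell by 0.63 on the log2 scale (SE 0.07, adjusted p = 1.76e-08). RPS6KB2 (-0.24) and PRKCA (-0.13) also fell. SGK2 (0.43), SGK3 (0.35) and RPS6KB1, the main S6 kinase (0.26), were among those that rose.

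Close to the mTOR complexes, RHEB, the small GTPase that switches mTORC1 on, fell from 168 to 175 CPM in the controls to 139 to 150.5 CPM (-0.27, adjusted p = 0.000252), with TSC1 and TSC2, its inhibitors, at -0.06 and -0.08. Of these 4 listed TSC and RHEB genes 1 was called, and of 8 further complex subunits 2 were, beside 30.4% of all genes. MLST8, shared by both complexes, fell (-0.36, adjusted p = 9.06e-05), as did AKT1S1, which encodes the mTORC1 inhibitor PRAS40 (-0.19, adjusted p = 0.0154). DEPTOR, at 0.127 to 1.01 CPM in the controls, had the highest estimate of the 8 subunits, at 1.02, and was not called. The fit blocked on replicate number called DEPTOR (1.23, adjusted p = 0.0194). The hnRNPA2B1 libraries did not pair by number (correlations of -0.015, -0.021 and -0.038), so that block has no basis here. RPTOR was at -0.19 and MTOR at 0.07.

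In the amino acid branch, which brings mTORC1 to the lysosome, 9 of 20 tested genes were called, 7 lower and 2 higher, beside 30.4% of all genes, and the list median was -0.15, beside 0.01 for all genes. FLCN, the folliculin gene of an inherited renal tumour syndrome, stood at 94.5, 101 and 95.5 CPM in the controls and 58.2, 64.1 and 69.3 CPM after the siRNA, with a fall of 0.64 on the log2 scale (SE 0.07, adjusted p = 1.49e-08). RRAGD (-0.57), LAMTOR2 (-0.28), RRAGC (-0.25), FNIP1, the partner of folliculin (-0.24), LAMTOR1 (-0.23) and the leucine sensor SESN2 (-0.23) fell too. RRAGB (0.36) and the arginine sensor SLC38A9 (0.36) rose. Of 14 genes in a list of mTORC1 effectors and other pathway genes 7 were called, beside the same 30.4% of all genes. PDCD4 (0.36), ULK1 (0.29) and DDIT4, an inhibitor upstream of mTORC1 (0.22), rose. EIF4G1 (-0.25), TFE3 (-0.25), EIF4EBP1 (-0.18) and LARP1 (-0.14) fell.

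Beside the small fall of FOXO3, its relative FOXO4 rose from a low level, from 1.30, 1.93 and 1.95 CPM to 2.76, 3.91 and 3.22 CPM (0.89, SE 0.21, adjusted p = 0.00184), and FOXO1 was at -0.03. Of 16 genes known as FOXO targets 9 were called, 5 higher and 4 lower, beside 30.4% of all genes (15.1% higher, 15.4% lower), and the list median was 0.22, beside 0.01 for all genes. TNFSF10, the death ligand TRAIL, stood at 5.07, 4.83 and 4.34 CPM in the controls and 8.54, 10.6 and 8.89 CPM after the siRNA (0.95, SE 0.13, adjusted p = 2.55e-06). FBXO32 (0.90), a ubiquitin ligase subunit of muscle wasting, CAT (0.72), the catalase gene, CCNG2 (0.50) and RBL2 (0.27) rose as well. GADD45A (-0.53), a DNA damage response gene, fell from 830.4 to 874 CPM to 590 to 609 CPM, and BCL6 (-0.44), TRIB1 (-0.41) and KLF6 (-0.38) fell too. The targets moved in both directions and the classical targets CDKN1B and BCL2L11 were not called, at -0.12 and 0.20. Several of the smaller calls in these lists rest on the fit: with the GC offset PIK3C2A (adjusted p = 0.383), PHLPP1 (0.0801), SGK3 (0.0824), LAMTOR2 (0.0644) and BCL6 (0.0586) were not called, and with no low-count filter PRKCA (0.0866) and LARP1 (0.0578) were not.

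**Figure D5:**
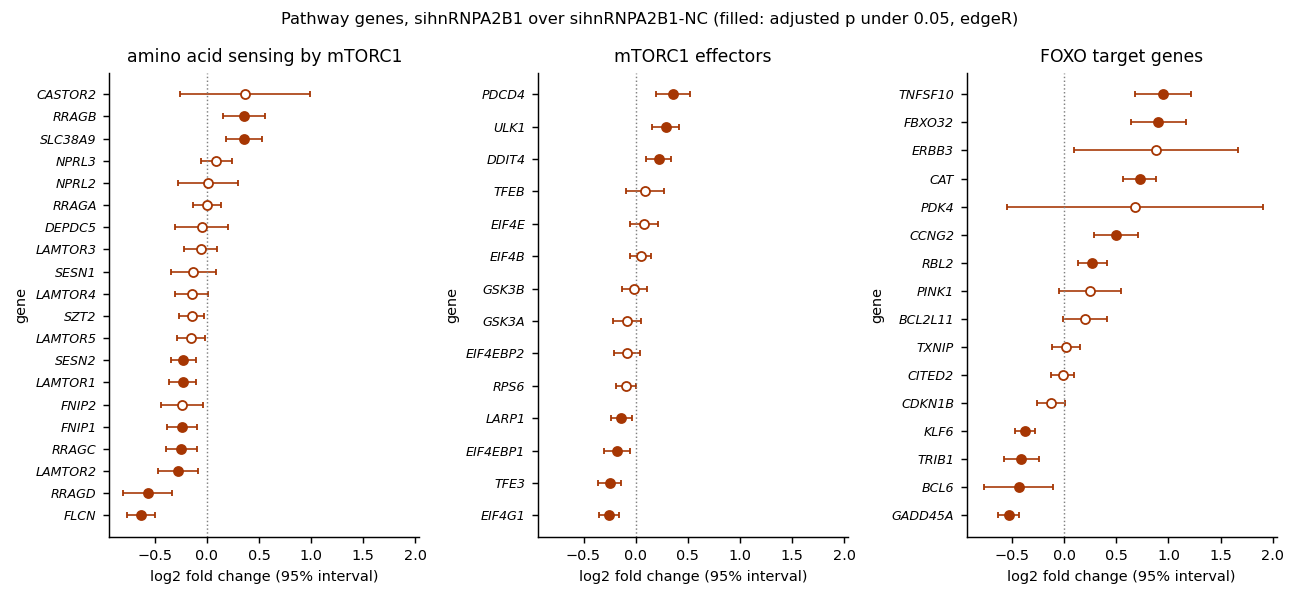
Log2 fold changes after hnRNPA2B1 siRNA, with 95% intervals, are plotted for 3 of the lists, ordered by value and filled where the adjusted p is below 0.05. FLCN is the lowest of the amino acid sensing genes, at -0.64, and TNFSF10 is the highest FOXO target, at 0.95. PDCD4 is the highest, at 0.36, in the list of mTORC1 effectors and other pathway genes.

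In the libraries labelled siDRAIC, 2 of 95 tested list genes were called, SGK1 and TXNIP, beside 0.713% of all genes. SGK1 stood at 29.6, 29.8 and 29.6 CPM in the controls and 56.5, 59.0 and 126 CPM in the libraries labelled siDRAIC (1.41, SE 0.28, adjusted p = 0.0462). TXNIP, an inhibitor of glucose uptake and a FOXO target, stood at 33.8, 23.5 and 31.8 CPM and at 76.5, 88.9 and 53.6 CPM (1.29, SE 0.22, adjusted p = 0.0263). Neither gene's groups overlapped, and both calls were lost without siDRAIC-NC replicate 2, siDRAIC-NC replicate 3 or siDRAIC replicate 2, at an edgeR adjusted p of 0.262, 0.238 and 0.0946 for SGK1 and 0.164, 0.135 and 0.137 for TXNIP. The SGK1 call was lost too without siDRAIC-NC replicate 1 (0.0967) or siDRAIC replicate 3 (0.0897), the second with the fold change down to 0.95 on the log2 scale. With the GC offset SGK1 was not called (adjusted p = 0.0547), while TXNIP, IRS2 (-0.81, adjusted p = 0.0273) and MLST8 (-0.54, adjusted p = 0.0452) were. The median log2 fold change of the 16 FOXO targets was 0.27 here, beside -0.0046 for all genes, with 14 estimates above 0 and 2 below. The median of that list was thus not higher after hnRNPA2B1 siRNA, at 0.22. IGF1R was higher in each library labelled siDRAIC, at 47.7 to 50.4 CPM against 20.1 to 31.9 CPM, and narrowly missed the test (0.89, SE 0.19, adjusted p = 0.0538).

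A fit blocked on replicate number, used because the DRAIC libraries pair by number, gave other counts. Of 95 list genes 16 were called in place of 2, beside 1404 of 15986 genes in all in place of 114. Of the members 0 of 8 were called. In the blocked fit IRS1 was higher (0.74, adjusted p = 7.36e-05) and IRS2 lower (-0.85, adjusted p = 4.57e-07). IRS2 stood at 205, 267 and 289 CPM in the controls and 126, 134 and 168 CPM in the libraries labelled siDRAIC. MLST8 (-0.55, adjusted p = 0.00801) and PIK3C2A (-0.54, adjusted p = 0.0143) were lower too. DEPTOR (1.72, from 0.351 to 1.31 CPM in the controls), FOXO4 (1.07), CCNG2 (0.94), ULK1 (0.68) and FBXO32 (0.73) were among the higher. Mitochondrial mRNA and GC trend differed between these libraries, as given above, and their part in these calls was not tested beyond the fit with both the block and the GC trend, where 21 list genes were called.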

How the data were processed

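RNA was measured in 12 libraries of 769-P cells; the labels' protocols name RNAiso Plus extraction and a TruSeq kit. The values are raw counts per Ensembl gene, deposited by the authors in 1 table per experiment. The submitters' processing notes list hg38, StringTie, DESeq2, STAR 2.7.10a and fastp 0.23.2. The counting program, its annotation and any use of strand were not given in the sources used here. Symbols were found for 60261 of 60617 IDs, and coordinates, from GENCODE 29, for 58542.

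Each comparison was fitted alone with edgeR 4.0.16 in R 4.3.3 (filterByExpr at a minimum count of 10, TMM, robust quasi-likelihood, two-sided), with Benjamini-Hochberg adjustment over all tested genes. The change in siDRAIC minus that in sihnRNPA2B1 was fitted on all 12 libraries. An SE is the size of the log2 fold change divided by the root of F. A count of 3 is 0.0702 to 0.0974 CPM. The fits of siRNA against control were tested on simulated counts that held no replicate pairing and no GC trend. That simulation cannot judge how the fits handle either. Libraries of 1 group differed by more than sampling noise (chi-square per degree of freedom 4.94 to 139.8).

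Whether replicate numbers pair libraries was checked by correlating deviations from group means. Same-numbered DRAIC libraries gave 0.437, 0.201 and 0.25, against -0.348 to 0.079 for other numbers, so they are taken as paired, from the data alone. The hnRNPA2B1 libraries gave -0.015, -0.021 and -0.038 and are not.

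The members and gene lists were chosen with earlier results of these data known. Named genes are the 8 members, up to 8 called genes with the smallest p of each pathway list and comparison, the 2 nearest genes to each member, DRAIC, HNRNPA2B1 and IGF1R. Others, including uncalled list genes, genes sharing sequence with members and those of the blocked fit, were chosen after their values were seen. Alternatives were RLE size factors, DESeq2 1.42.0, no low-count filter, a replicate block, all 12 libraries in 1 fit, each library left out and, added after seeing the data, an offset for the GC trend (lowess, span 0.3) without and with the block, and union-exon lengths. Results for some list genes are not reported here.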

Additional observations from a re-analysis of the deposited data

Results flagged for a closer look

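The change in the libraries labelled siDRAIC differed from that after hnRNPA2B1 siRNA for 2 of the 95 tested pathway list genes, beside 0.211% of all genes, and for 1 marker, by the test of the difference itself in edgeR. For SGK1 the difference was 2.01 on the log2 scale (95% interval 1.32 to 2.71, adjusted p = 0.0231): it was higher in 3 of 3 libraries labelled siDRAIC and lower in 3 of 3 sihnRNPA2B1 libraries than in all their controls. For TXNIP the difference was 1.23 (0.73 to 1.73, adjusted p = 0.044), with 0.02 after hnRNPA2B1 siRNA. For CDH6, a kidney cadherin counted among the tissue markers and named after its values were seen, the difference was -1.07 (-1.46 to -0.69, adjusted p = 0.0258), with a rise in both experiments, of 0.88 (adjusted p = 0.0381) and 1.92 (adjusted p = 1.22e-14). The control levels of these genes were unlike in the experiments. SGK1 stood at 29.6 to 29.8 CPM in siDRAIC-NC and 86.4 to 91.4 CPM in sihnRNPA2B1-NC. In the same groups TXNIP stood at 23.5 to 33.8 and 506 to 554 CPM, and CDH6 at 91.6 to 122 and 7.39 to 8.83 CPM. What these levels have to do with the differences was not tested. With single libraries left out, 0 to 4 pathway list genes were called over 12 fits. At least 1 of these fits therefore called neither SGK1 nor TXNIP, and both calls depend on the libraries kept. None of the 8 members was called in this test.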

How the results depend on the processing

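In the libraries labelled siDRAIC 0 of 8 members were called under every alternative run, while the count of all genes, 114, was 392 with DESeq2, 520 with no low-count filter, 665 with all 12 libraries in 1 fit, 290 with the GC offset and 9 to 1035 without single libraries, the highest without siDRAIC-NC replicate 1. The 2 pathway list genes became 1 with RLE size factors, 5 with DESeq2, 7 with no filter, 9 with all 12 libraries, 3 with the GC offset, which loses SGK1, and 0 to 12 without single libraries.

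With the replicate block these counts were 1404 and 16, and with block and GC offset 2082 and 21. After hnRNPA2B1 siRNA, whose numbers pair nothing, the block gave 4414 genes for 4781, 39 list genes for 40 and 2 members for 2. Every sample correlated best with its own number in the DRAIC experiment only. Between the control groups, also not paired, the block called 5 members for 4, adding PIK3CA (-1.08, adjusted p = 0.0139). For the difference of the changes the block gave 258 genes and 5 list genes, and with the GC offset 801 and 12.

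After hnRNPA2B1 siRNA all 12 libraries in 1 fit called 283 genes, 0 members and 5 list genes. Leaving out single libraries gave 3318 to 5500 genes, 1 to 4 members and 30 to 46 list genes. For the difference of the changes, 36 genes became 194 with DESeq2, 263 with no filter, 178 with the GC offset and 9 to 349 without single libraries, and 2 list genes became 5 with no filter, 5 with the GC offset and 0 to 4 without single libraries. Between the control groups, leaving out single libraries gave 5860 to 10376 genes, 3 to 6 members and 35 to 65 list genes.

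Uncalled members changed sign. With the GC offset, alone and with the block, the log2 values after hnRNPA2B1 siRNA were 0.078 and 0.078 for AKT2 and -0.10 and -0.10 for RICTOR, the difference of the changes was 0.052 and 0.048 for RICTOR, and RPTOR between the control groups was -0.061 and -0.071. Without single libraries, values in the libraries labelled siDRAIC ran from -0.75 to 0.40 for PIK3CA, -0.47 to 0.083 for PIK3R1, -0.18 to 0.020 for AKT1, -0.31 to 0.034 for RPTOR, -0.31 to 0.27 for RICTOR and -0.077 to 0.19 for FOXO3. After hnRNPA2B1 siRNA they ran from -0.0999 to 0.062 for PIK3R1, -0.056 to 0.0355 for AKT2 and -0.056 to 0.12 for RICTOR. The difference of the changes ran from -0.95 to 0.16 for PIK3CA, -0.45 to 0.071 for PIK3R1, -0.085 to 0.16 for AKT1, -0.16 to 0.22 for RPTOR and -0.32 to 0.21 for RICTOR. Between the control groups PIK3R1 ran from -0.18 to 0.20 and MTOR from -0.097 to 0.052. The log2 ratio differences in the libraries labelled siDRAIC ran from -0.25 to 0.19 for PIK3R1 to PIK3CA and from -0.27 to 0.53 for RICTOR to RPTOR. The cause of these shifts was not tested.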
